A study of Mus musculus with 11 samples.

Results

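The genes described here are 30 mouse genes of mitosis, named one by one and matched by symbol in the deposited count table. All 30 were found among its 47131 genes, and all 30 passed the filter on low counts, which left 14840 genes. RNA was measured by sequencing of poly(A)-selected RNA from colorectal organoids of mice, epithelial spheres that grow from colon fragments in Matrigel, a gel of basement membrane. The mice were female C57BL/6J animals of 6 to 8 weeks. Organoids of the NAP group (6 libraries) were given 10 pM NAP for 48 h, and those of the control group (5 libraries) PBS as vehicle for the same time, although the sample descriptions call the controls untreated. What NAP stands for is not spelled out in the labels. The labels call the libraries biological replicates but do not say whether they came from separate mice or cultures, so each p-value is set against differences between libraries that could be technical. All carry 1 batch label.

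Mitosis is driven by the kinase Cdk1, which is switched on by cyclins A and B. Aurora and Polo kinases then build the spindle, the spindle checkpoint holds back chromosome separation until every kinetochore is attached, and the anaphase promoting complex, with Cdc20, ends mitosis by marking cyclin B and securin for destruction. Transcripts of these genes are made mainly in late S phase, G2 and M, and they mark dividing cells. In the colon, dividing cells sit in the lower crypt as stem and transit amplifying cells, whereas mature colonocytes and goblet cells have left the cycle. A bulk library cannot tell fewer dividing cells from less RNA of these genes per cell.

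The mitosis genes varied together from library to library, and the widest steps lay among the controls. Summed over the 30 genes, the level was 742, 459.7, 1070.0, 629.7, 469 and 1018 CPM in NAP libraries 1 to 6, against 1487, 316, 1125, 1884 and 282 CPM in controls 1 to 5 (CPM are counts scaled to library size with TMM factors, and every CPM value below is on that scale). Controls 4 and 1 were the highest of the 11 libraries, controls 2 and 5 the lowest, and the NAP libraries lay between, with NAP 3 and 6 high and NAP 2 and 5 low. The highest control held 6.67 times the sum of the lowest, and the highest NAP library 2.33 times that of the lowest. Control 4 was the highest library for 30 of 30 genes, and the lowest was control 5 for 19, control 2 for 8, NAP 2 for 2 and NAP 5 for 1. All 30 genes stood above their own 11-library mean in NAP 3 and in controls 1, 3 and 4, and all 30 stood below it in NAP 2 and 5 and in controls 2 and 5. NAP 1, 4 and 6 were mixed, with 21, 5 and 29 genes above.

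**Figure D1:**
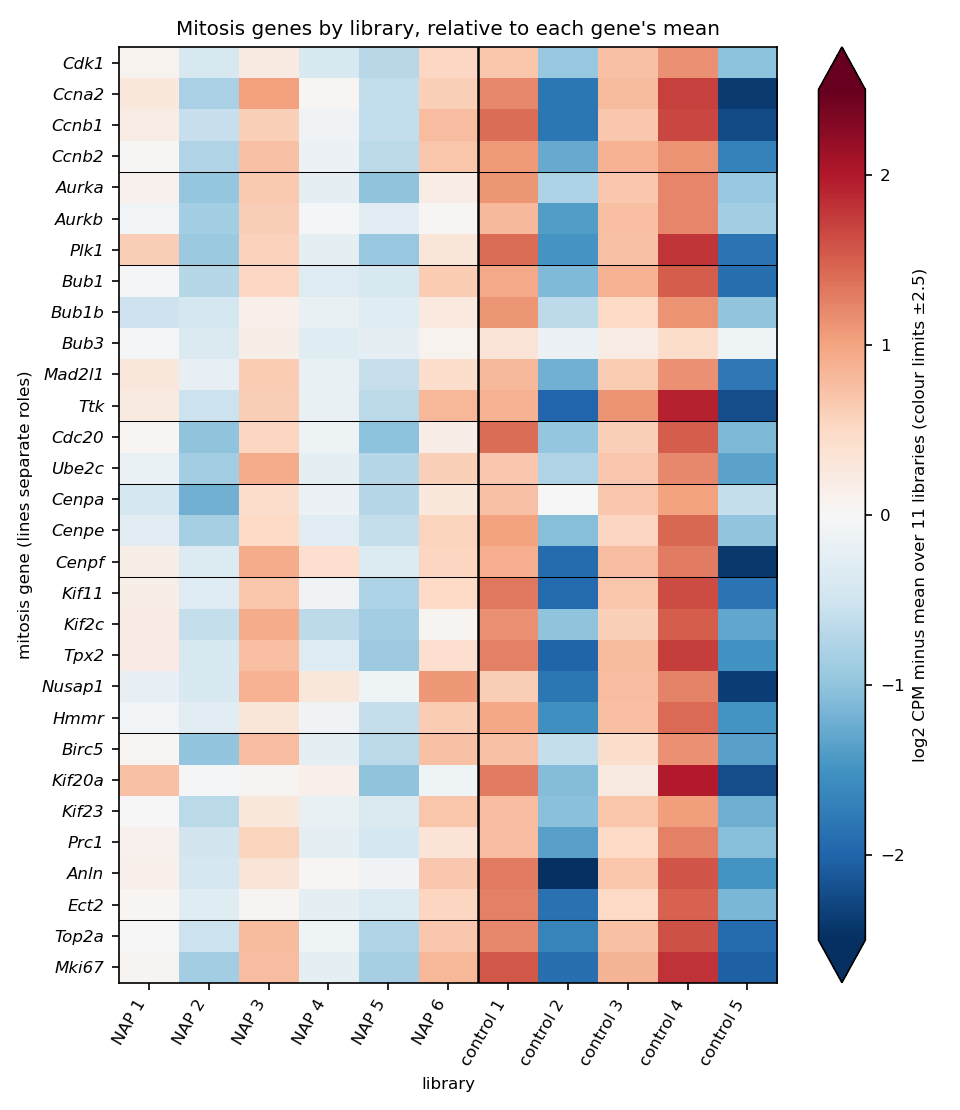
Each cell is the log2 CPM of 1 mitosis gene (rows, grouped by role) in 1 library (columns, NAP 1 to 6 left of control 1 to 5) minus that gene's mean over the 11 libraries. Controls 1, 3 and 4 are red and controls 2 and 5 blue for all 30 genes, and the deepest colours, from −2.72 for Anln in control 2 to 1.99 for Kif20a in control 4, are among the controls.

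Gene counts totalled 16546263 to 21947414 per library, and the smallest count of a mitosis gene in any library was 9 (Kif20a in control 5), so no library was at 0 for any of them. Controls 2 and 5 stood apart in other measures as well. Genes with at least 1 count numbered 19828 to 22390 in NAP libraries, 27218 and 25725 in controls 2 and 5 and 21172 to 22108 in the other controls. Controls 2 and 5 had TMM factors of 0.855 and 0.848, the lowest of the 11, where controls 1 and 4 had the highest at 1.18 and 1.24. Counts from the mitochondrial chromosome made up 5.17 to 8.08% of NAP libraries, 4.56 and 4.78% of controls 2 and 5, and 2.74 to 3.40% of the other controls. The part of these measures in the results below was not tested.

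The comparison of NAP with control asked whether the level of mitosis transcripts differed after 48 h. None of the 30 reached the adjusted p threshold of 0.05 (edgeR, quasi-likelihood test), where 2.12% of all tested genes did (315 of 14840), 1.07% as lower in NAP. None reached an unadjusted p of 0.05 either, as 23.6% of all tested genes did, and DESeq2 and limma on voom weights called 0 of the 30 as well. The log2 fold change, NAP minus control, was below 0 for 29 of 30, against 55.3% of all tested genes, with a median of −0.50 (all genes −0.070) and a range of −0.80 for Cdc20 to 0.071 for Nusap1. The standard error of these values had a median of 0.49, against 0.28 over all genes, and adjusted p ran from 0.244 for Cenpa to 0.952 for Nusap1. The differences were smaller in fits to the log values of single libraries, where edgeR fits the counts. With limma on voom weights 24 of 30 were below 0 with a median of −0.20. On log2(FPKM + 0.1) 21 were, with a median of −0.10.

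The direction rested on which controls were counted. Without controls 2 and 5 all 30 were below 0 with a median of −1.06, and 6 passed as lower in NAP, Anln, Bub1b, Cdc20, Ect2, Hmmr and Kif11 (adjusted p = 0.0386 to 0.0498), where 2.61% of all tested genes passed in that direction and 2.71% as higher. Without controls 1 and 4, 2 were below 0, Bub3 and Cenpa, the median was 0.41, and 0 passed, with 0 at an unadjusted p below 0.05, where 2.82% of all tested genes passed as higher and 5.46% as lower. These pairs were chosen with the levels of the libraries known, so both fits describe the dependence and neither is a test of its own. Leaving out 1 library at a time kept the median below 0, from −0.74 without control 5 to −0.12 without control 4.

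**Figure D2:**
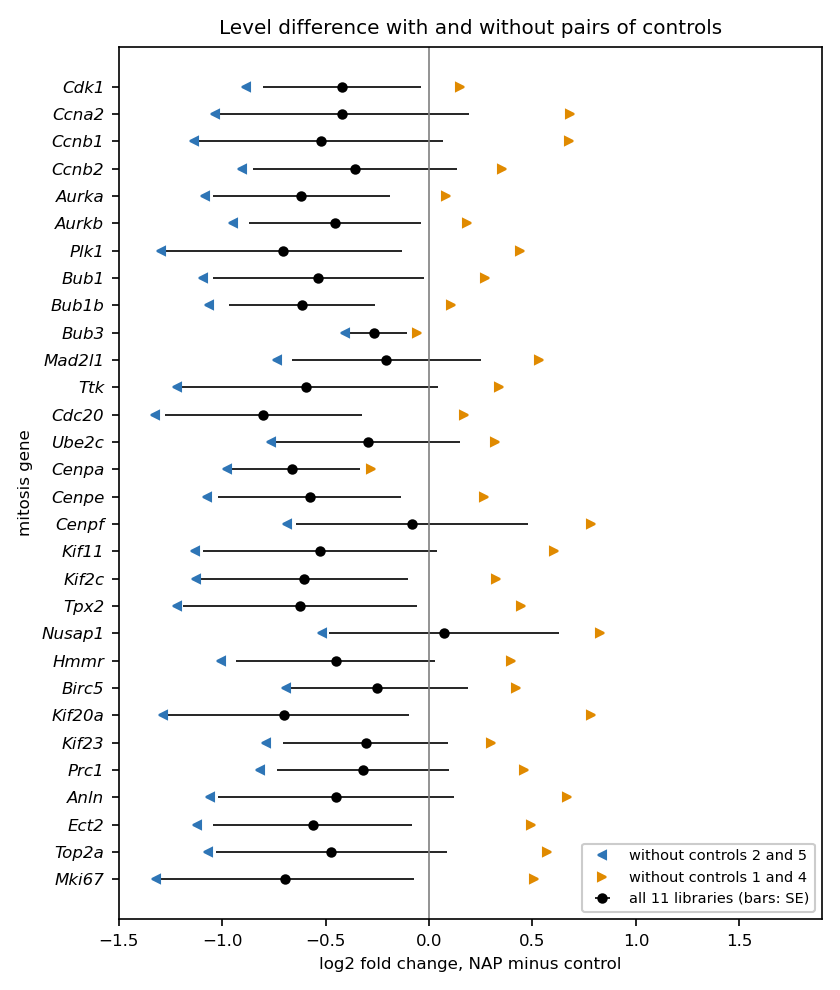
Log2 fold change, NAP minus control, of each mitosis gene in edgeR's fit on all 11 libraries (black, bars 1 SE) and with 2 controls left out (triangles). Every gene moves left without controls 2 and 5, to −1.32 at the far end, and right without controls 1 and 4, to 0.82.

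The controls spread wider than the NAP libraries. The SD of log2 CPM was larger over the 5 controls than over the 6 NAP libraries for 30 of 30 mitosis genes, against 63.3% of all tested genes. Its median over the 30 was 0.57 in NAP and 1.40 in controls, and over all tested genes 0.38 in NAP and 0.50 in controls. Per gene, the highest NAP library held 1.42 to 3.59 times the CPM of the lowest (median 2.79), and the highest control 1.53 to 21.5 times that of the lowest (median 7.84). Every NAP library fell inside the range of the controls for 27 of 30 genes, all but Aurka, Bub3 and Cenpa, against 26.6% of all tested genes, and the groups overlapped for all 30, where 4.71% of all tested genes did not overlap. Controls 2 and 5 were both below every NAP library for 23 of 30 (22.5% of all tested genes), and controls 1, 3 and 4 all above every NAP library for 16 of 30 (7.28%).

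Absolute deviations of log2 CPM from the group mean were compared between the groups with limma across all tested genes. The spread was smaller in NAP at an adjusted p of 0.05 for 21 of 30 mitosis genes, where 8.65% of all tested genes passed in that direction and 0.505% in the other. The 9 that did not pass were Aurka, Bub3, Cdc20, Ube2c, Cenpa, Cenpe, Kif2c, Birc5 and Kif20a. The smallest adjusted p of the 30 was 0.0278, for Cenpf, so the calls sit near the threshold. They were lost where deviations were taken from the group median (0 of 30, 4 at an unadjusted p below 0.05), and without any 1 of NAP 2, 3, 4 and 5 and controls 2 and 5 (0 of 30 in each, with 6 at an unadjusted p below 0.05 without control 5, 12 without control 2 and 25 to 27 without the NAP libraries). Over all tested genes 0 passed without those NAP libraries, 17 without control 2 and 16 without control 5. An unadjusted limma p below 0.05 was reached by 3696 to 3911 genes (of 14646 to 14695) without those NAP libraries. It was reached by 2695 of 15096 without control 2 and by 2680 of 15119 without control 5. Without NAP 1 there were 6 calls (397 of 14579 tested genes, in either direction). Without NAP 6 there were 17 (970 of 14597), and without control 3 there were 26 (4149 of 15165). With controls 1 and 4 left out, 0 passed and 21 had an unadjusted p below 0.05, as did 2587 of 15873 tested genes. With controls 2 and 5 left out, 0 passed and none had an unadjusted p below 0.05, as 1673 of 15501 tested genes did. In that setting 4 of 30 genes had the larger SD in controls, and the median SD was 0.58 in NAP and 0.37 in controls.

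**Figure D3:**
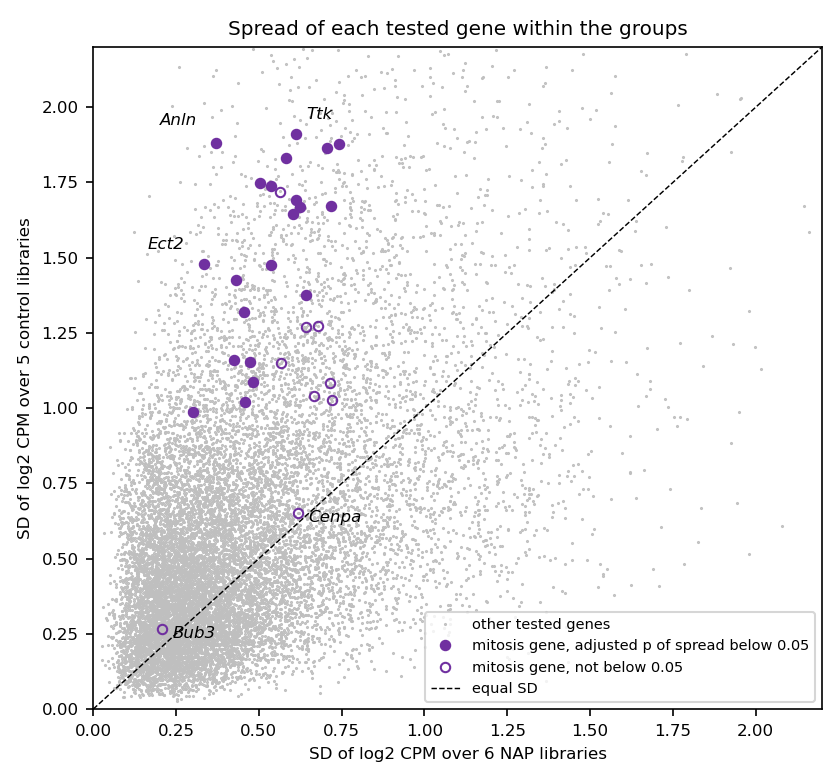
SD of log2 CPM over the 6 NAP libraries (horizontal) and over the 5 controls (vertical) for each tested gene (grey, 119 genes beyond 2.2 on either axis not drawn) and each mitosis gene (purple, filled where the spread test passed). All 30 mitosis genes lie above the line of equal SD, with Cenpa and Bub3 nearest to it and Anln farthest from it as a ratio.

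Genes of this group are known for short promoter elements. The CHR element, with the core TTTGAA, binds the MuvB core shared by the DREAM complex, which represses in resting cells, and by the complexes with Mybl2 and Foxm1, which activate in dividing ones, and CCAAT boxes bind NF-Y. In the RefSeq promoter table (GRCm38.p6, 250 bases before to 50 after each start), 26 of 30 mitosis genes had an entry, and Ccna2, Aurkb, Tpx2 and Kif20a are named only. TTTGAA or its reverse complement TTCAAA occurred in 20 of 26 (76.9%), against 20.2% of the 27025 genes of the table. Within 50 bases of the start, a window chosen after the positions were seen, it occurred in 18 of 26, against 5.72%. CCAAT or ATTGG occurred in 21 of 26 (80.8%), against 41.1%, and both motifs in 18 of 26, against 7.97%. TTTAAA, its own reverse complement, occurred in 8 of 26, against 14.9%. The 6 genes without TTTGAA were Birc5, Bub1, Ccnb1, Cenpe, Mad2l1 and Nusap1. A match gives the letters only and not a bound site. Stretches from 150 bases before to 50 after the start of 8 genes follow, 5′ to 3′ on the gene's strand. They show CCAAT upstream of a TTTGAA near the start (Ccnb2, Plk1, Cenpa, Bub1b, Top2a), CCAAT on either side of it (Cdc20), a gene with TTTAAA and no TTTGAA (Ccnb1) and one with none of the motifs (Nusap1). The 3 motifs, on either strand, are in capitals.
Ccnb2, chr9:70421505-70421704, minus strand: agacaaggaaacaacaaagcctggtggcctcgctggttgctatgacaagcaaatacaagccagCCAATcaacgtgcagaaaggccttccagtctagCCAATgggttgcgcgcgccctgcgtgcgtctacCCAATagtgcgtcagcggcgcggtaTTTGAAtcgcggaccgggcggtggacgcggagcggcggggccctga
Plk1, chr7:122159285-122159484, plus strand: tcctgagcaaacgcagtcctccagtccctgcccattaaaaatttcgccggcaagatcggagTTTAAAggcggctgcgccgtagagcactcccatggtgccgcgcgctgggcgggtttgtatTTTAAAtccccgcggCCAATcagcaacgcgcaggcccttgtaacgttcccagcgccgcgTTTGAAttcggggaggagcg
Cenpa, chr5:30666736-30666935, plus strand: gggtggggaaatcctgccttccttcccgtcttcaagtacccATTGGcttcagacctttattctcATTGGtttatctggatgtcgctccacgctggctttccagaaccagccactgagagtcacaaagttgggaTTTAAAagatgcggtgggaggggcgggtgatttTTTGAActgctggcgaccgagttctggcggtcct
Bub1b, chr2:118598061-118598260, plus strand: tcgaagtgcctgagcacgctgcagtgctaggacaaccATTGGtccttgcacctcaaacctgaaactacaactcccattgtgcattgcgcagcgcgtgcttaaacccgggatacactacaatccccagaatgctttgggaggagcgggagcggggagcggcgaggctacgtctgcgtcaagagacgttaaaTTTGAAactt
Top2a, chr11:99024140-99024339, minus strand: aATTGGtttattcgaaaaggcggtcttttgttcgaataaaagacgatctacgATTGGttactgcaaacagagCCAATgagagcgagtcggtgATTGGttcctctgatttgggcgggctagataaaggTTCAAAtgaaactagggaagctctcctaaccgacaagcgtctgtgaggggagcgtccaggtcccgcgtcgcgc
Cdc20, chr4:118437294-118437493, minus strand: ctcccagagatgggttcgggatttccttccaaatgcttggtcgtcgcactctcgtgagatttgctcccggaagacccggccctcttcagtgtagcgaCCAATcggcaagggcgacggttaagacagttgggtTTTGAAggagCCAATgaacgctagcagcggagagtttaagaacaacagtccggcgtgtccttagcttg
Ccnb1, chr13:100786437-100786636, minus strand: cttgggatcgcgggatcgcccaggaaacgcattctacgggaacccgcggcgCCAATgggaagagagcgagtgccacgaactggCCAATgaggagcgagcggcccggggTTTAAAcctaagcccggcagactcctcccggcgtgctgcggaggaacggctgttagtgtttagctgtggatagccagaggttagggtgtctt
Nusap1, chr2:119618148-119618347, plus strand: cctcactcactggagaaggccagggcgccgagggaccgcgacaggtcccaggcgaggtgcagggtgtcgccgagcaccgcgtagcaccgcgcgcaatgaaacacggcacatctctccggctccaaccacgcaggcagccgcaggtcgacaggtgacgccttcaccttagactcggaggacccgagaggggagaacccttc

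In these stretches TTTGAA had its first base 4 bases after the start in Ccnb2, 30 after it in Plk1, 16 after it in Cenpa, 40 after it in Bub1b, 23 before it in Top2a (as TTCAAA) and 18 before it in Cdc20. Of the 8 genes, Ccnb2, Plk1, Bub1b, Top2a, Ccnb1 and Nusap1 passed the spread test and Cenpa and Cdc20 did not. Ccnb1 and Nusap1, with no TTTGAA in the window, had an SD of log2 CPM of 1.83 and 1.65 in controls. Whether spread differed between genes with and without the motif was not tested.

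The kinase of mitotic entry and its cyclins differed in how far they ranged. Cdk1, the catalytic partner of the mitotic cyclins (identifier 12534, chromosome 10 from 69170976 to 69188742 of GRCm39), had the smallest p of the 4. Over the NAP libraries Cdk1 had a low of 17.3, a median of 25.5 and a high of 40.1 CPM, against 45.3, 14.5, 46.1, 61.4 and 13.7 CPM in controls 1 to 5. Controls 1, 3 and 4 were above and controls 2 and 5 below every NAP library. Its log2 fold change was −0.42 with an SE of 0.38 (edgeR adjusted p = 0.525), and its SD of log2 CPM was 0.46 in NAP and 1.02 in controls (spread adjusted p = 0.0395). Ccna2 is cyclin A2, which acts from S phase into early mitosis. The lowest, median and highest NAP values of Ccna2 were 16.6, 32.6 and 59.7 CPM, against control values of 67.4, 8.31, 50.8, 96.5 and 5.51 CPM. Ccnb1 is cyclin B1, the main partner of Cdk1 at entry. For Ccnb1 the NAP libraries ran from 13.1 through a median of 20.7 to 34.4 CPM, and controls 1 to 5 stood at 52.9, 5.66, 31.9, 63.6 and 4.15 CPM. Ccnb2 encodes cyclin B2, a second B-type cyclin. NAP libraries held 10.2, 16.7 and 28.7 CPM of Ccnb2 at their lowest, median and highest, and controls 1 to 5 held 36.3, 7.19, 31.4, 38.0 and 5.30 CPM. For all 3 cyclins controls 2 and 5 were below every NAP library, and control 3 lay within the NAP range for Ccna2 and Ccnb1. The log2 fold changes of the cyclins were −0.42, −0.52 and −0.36 (SE 0.61, 0.59 and 0.49). The SD over controls was 1.86 for Ccna2 and 1.83 for Ccnb1, above those of Cdk1 and Ccnb2, and all 4 genes passed the spread test. The deposited coordinates of Ccna2 and Exosc9, on the opposite strand, overlap by 863 bases, and whether counting used strand was not given in the sources used here.

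Among the mitotic kinases, Plk1 had the highest level per length. Its mean FPKM (fragments scaled to gene length and library size, as the authors deposited them) was 20.0 in NAP and 32.3 in controls, against 8.18 in NAP and 11.1 in controls for Aurkb. Plk1 is the Polo-like kinase of centrosome maturation and mitotic entry. Plk1 had 23.1, 46.4 and 68.5 CPM as the lowest, median and highest of the 6 NAP libraries, against 117, 15.9, 74.2, 153 and 12.3 CPM in controls 1 to 5. Its controls 1, 3 and 4 were above every NAP library, and NAP 1 and 3 were close together at the top of their group. Aurka, the spindle pole kinase (identifier 20878, chromosome 2 from 172198110 to 172212820 of GRCm39), had the smallest p of the 3. Over the NAP libraries Aurka had a low of 7.48, a median of 14.7 and a high of 23.9 CPM, against 32.6, 8.87, 24.4, 35.6 and 7.81 CPM in controls 1 to 5. Controls 2 and 5 both lay inside the NAP range here, near its low end, and Aurka is one of the 3 genes whose NAP range reached below the controls. Its log2 fold change was −0.62 with an SE of 0.43 (edgeR adjusted p = 0.404). Aurkb is the kinase of the chromosomal passenger complex, which corrects kinetochore attachments. The lowest, median and highest NAP values of Aurkb were 10.4, 18.2 and 28.8 CPM, against control values of 33.0, 7.06, 31.8, 43.6 and 10.4 CPM. The spread test passed for Plk1 and Aurkb, and the SD of log2 CPM of Aurka was 0.67 in NAP and 1.04 in controls (spread adjusted p = 0.188). In the deposited coordinates Aurka overlaps Cstf1, on the opposite strand, by 256 bases, and Cstf1 had 18.8 to 41.2 CPM over the 11 libraries.

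The spindle checkpoint held the gene that varied least and the one with the largest SD over controls. Bub3, an adaptor that brings Bub1 and BubR1 to kinetochores and is made outside mitosis too, had 44.95 to 63.6 CPM in NAP libraries, against 72.1, 51.6, 65.4, 78.6 and 53.4 CPM in controls 1 to 5. The highest control held 1.53 times the lowest, and the SD of log2 CPM was 0.21 in NAP and 0.27 in controls (spread adjusted p = 0.738). Ttk, the Mps1 kinase that starts checkpoint signalling, stood at the other end. For Ttk the NAP libraries ran from 2.95 through a median of 4.83 to 8.48 CPM, and controls 1 to 5 stood at 8.81, 1.12, 10.5, 18.4 and 0.931 CPM. Control 4 held 19.7 times the CPM of control 5, and the SD was 0.61 in NAP and 1.91 in controls (spread adjusted p = 0.0284). Bub1b encodes BubR1, a subunit of the checkpoint complex that binds Cdc20 (identifier 12236, chromosome 2 from 118428684 to 118472073 of GRCm39). NAP libraries held 15.7, 19.0 and 26.6 CPM of Bub1b at their lowest, median and highest, and controls 1 to 5 held 48.5, 14.2, 31.8, 49.1 and 11.3 CPM. The NAP libraries were tight here, the highest 1.69 times the lowest, and the log2 fold change was −0.62 with an SE of 0.35 (edgeR adjusted p = 0.313). Bub1 is a kinase that recruits checkpoint proteins to kinetochores. Bub1 had 5.81, 8.41 and 14.9 CPM as the lowest, median and highest of the 6 NAP libraries, against 18.5, 4.40, 17.6, 27.6 and 2.51 CPM in controls 1 to 5. Mad2l1 encodes Mad2, the protein that inhibits Cdc20. Over the NAP libraries Mad2l1 had a low of 8.73, a median of 13.7 and a high of 20.2 CPM, against 23.0, 5.66, 20.5, 29.1 and 3.72 CPM in controls 1 to 5. In both, controls 1, 3 and 4 were above and controls 2 and 5 below every NAP library. The log2 fold changes of Bub1, Mad2l1, Ttk and Bub3 were −0.54, −0.21, −0.59 and −0.27 (adjusted p = 0.325 to 0.812), and all of the 5 but Bub3 passed the spread test.

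Both partners of the anaphase promoting complex missed the spread test. Cdc20, its activator and the target of the checkpoint (identifier 107995, chromosome 4 from 118290098 to 118294540 of GRCm39), had the lowest log2 fold change of the 30, −0.80 with an SE of 0.48 (edgeR adjusted p = 0.329). The lowest, median and highest NAP values of Cdc20 were 9.99, 19.9 and 29.5 CPM, against control values of 53.8, 10.3, 31.0, 58.6 and 9.24 CPM. Controls 1, 3 and 4 were above every NAP library, control 5 was below, and control 2 lay at the low end of the NAP range. Its SD of log2 CPM was 0.64 in NAP and 1.27 in controls (spread adjusted p = 0.0970). Ube2c, the ubiquitin-conjugating enzyme that starts chains on the complex's substrates, was the most abundant mitosis gene per length, with a mean of 37.8 FPKM in NAP and 46.0 FPKM in controls. It ranged from 18.8 to 66.0 CPM in NAP libraries, against 55.1, 20.3, 54.9, 79.0 and 13.5 CPM in controls 1 to 5, and its log2 fold change was −0.30 with an SE of 0.45 (edgeR adjusted p = 0.721). Cdc20 overlaps the more abundant Elovl1 on the other strand by 53 bases in the deposited coordinates.

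**Figure D4:**
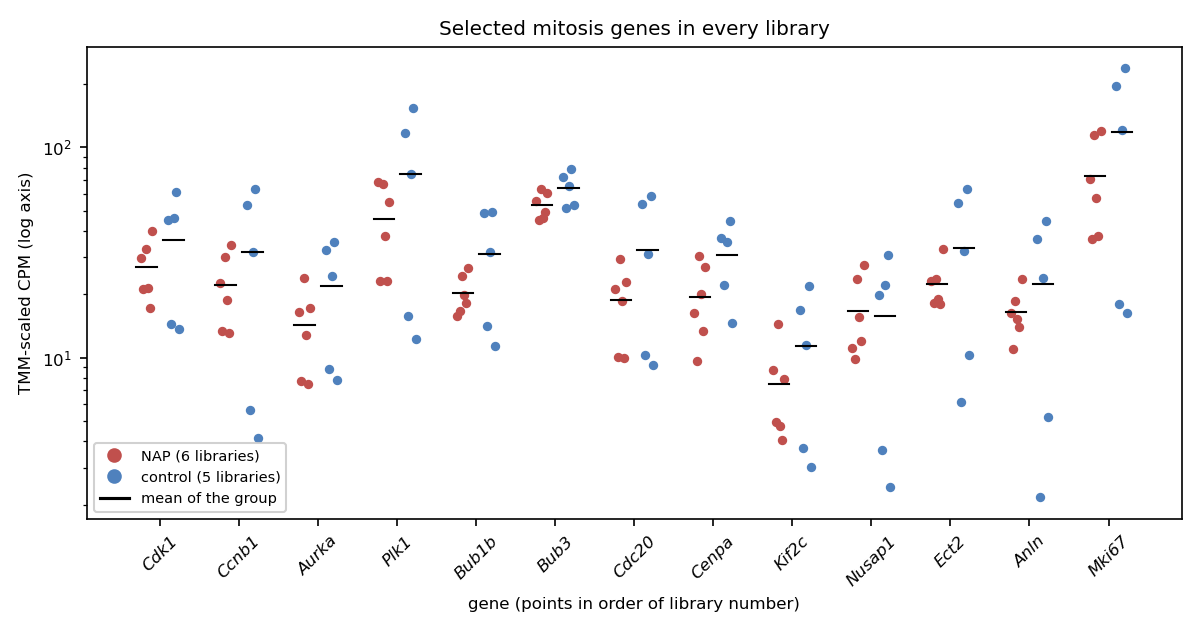
TMM-scaled CPM (log axis) of 13 mitosis genes in every library, NAP (red, 6 points) left of control (blue, 5 points), with the group mean as a black bar. The control points reach farther up and down than the NAP points for most genes, as for Ccnb1 at 63.6 and 4.15 CPM at the ends, while Bub3 stays within 44.95 to 78.6 CPM.

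Centromere and kinetochore genes were unlike one another. Cenpa, the histone H3 variant that marks centromeres (identifier 12615, chromosome 5 from 30824214 to 30832181 of GRCm39), had the smallest p of all 30, and its log2 fold change was −0.66 with an SE of 0.33 (edgeR adjusted p = 0.244). For Cenpa the NAP libraries ran from 9.64 through a median of 18.2 to 30.4 CPM, and controls 1 to 5 stood at 37.1, 22.1, 35.4, 44.7 and 14.7 CPM. Controls 1, 3 and 4 were above every NAP library, and controls 2 and 5 lay inside the NAP range. Its SD of log2 CPM was 0.62 in NAP and 0.65 in controls (spread adjusted p = 0.872), the smallest ratio of controls to NAP among the 30. Without controls 1 and 4 its log2 fold change was −0.28, still below 0. Cenpf, a large protein of the outer kinetochore, was the opposite case. NAP libraries held 9.40, 14.6 and 22.8 CPM of Cenpf at their lowest, median and highest, and controls 1 to 5 held 22.5, 3.07, 20.4, 29.4 and 2.15 CPM. Its log2 fold change was −0.084 with an SE of 0.56 (edgeR adjusted p = 0.943), while its SD was 0.50 in NAP and 1.75 in controls (spread adjusted p = 0.0278). Cenpe, a kinesin that carries chromosomes to the spindle equator, ranged over 7.36 to 19.4 CPM in NAP libraries and 6.29 to 35.9 CPM in controls, and its log2 fold change was −0.58 with an SE of 0.44 (edgeR adjusted p = 0.452).

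Of the spindle motors and microtubule proteins, Nusap1 was the one mitosis gene with a log2 fold change above 0, 0.071 with an SE of 0.56 (edgeR adjusted p = 0.952). It encodes a protein that bundles spindle microtubules near chromosomes. Nusap1 had 9.82, 13.8 and 27.5 CPM as the lowest, median and highest of the 6 NAP libraries, against 19.9, 3.63, 22.2, 30.6 and 2.43 CPM in controls 1 to 5. Control 1 lay inside its NAP range, as did control 3, and controls 2 and 5 were below it. Without NAP 3, NAP 6, control 2 or control 5 in turn its value was −0.056, −0.11, −0.16 and −0.18, so its sign was not held. It overlaps Oip5, on the opposite strand, by 208 bases. Kif11 encodes Eg5, the motor that pushes spindle poles apart. Over the NAP libraries Kif11 had a low of 11.2, a median of 19.6 and a high of 31.1 CPM, against 47.9, 4.89, 31.0, 59.6 and 5.23 CPM in controls 1 to 5. Kif2c encodes MCAK, which takes microtubules apart at centromeres (identifier 73804, chromosome 4 from 117016830 to 117039821 of GRCm39), and it had the smallest p of the 5, at a log2 fold change of −0.61 with an SE of 0.50 (edgeR adjusted p = 0.490). The lowest, median and highest NAP values of Kif2c were 4.08, 6.44 and 14.4 CPM, against control values of 16.8, 3.70, 11.4, 21.89 and 3.01 CPM. NAP 3 was the highest of its group for both motors. Tpx2 activates Aurora A and helps microtubules to form at chromosomes. For Tpx2 the NAP libraries ran from 9.36 through a median of 17.4 to 29.8 CPM, and controls 1 to 5 stood at 42.4, 4.33, 30.8, 58.8 and 6.16 CPM. Hmmr encodes a spindle protein also known as RHAMM. NAP libraries held 9.55, 13.6 and 22.3 CPM of Hmmr at their lowest, median and highest, and controls 1 to 5 held 28.4, 4.89, 24.2, 38.5 and 5.01 CPM. Both had controls 1, 3 and 4 above and controls 2 and 5 below every NAP library. Log2 fold changes were −0.53 for Kif11, −0.62 for Tpx2 and −0.45 for Hmmr, and all of the 5 but Kif2c passed the spread test.

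Genes of the midzone and of cytokinesis held the largest contrast in spread. Anln encodes anillin, the scaffold of the contractile ring. Anln had 11.01, 15.8 and 23.7 CPM as the lowest, median and highest of the 6 NAP libraries, against 36.5, 2.17, 24.0, 44.5 and 5.23 CPM in controls 1 to 5. Its SD of log2 CPM was 0.37 in NAP and 1.88 in controls (spread adjusted p = 0.0284), 5.06 times as large in controls, the highest ratio of the 30. Ect2, which activates RhoA at the cell equator (identifier 13605, chromosome 3 from 27151371 to 27208402 of GRCm39), came next with a ratio of 4.44. Over the NAP libraries Ect2 had a low of 17.9, a median of 21.1 and a high of 32.9 CPM, against 54.1, 6.15, 32.1, 63.3 and 10.2 CPM in controls 1 to 5. Its log2 fold change was −0.56 with an SE of 0.48 (edgeR adjusted p = 0.501). Kif23 is the motor subunit of centralspindlin, which anchors Ect2. The lowest, median and highest NAP values of Kif23 were 22.2, 33.4 and 57.4 CPM, against control values of 60.5, 17.2, 57.1, 73.3 and 15.1 CPM. Prc1 cross-links the antiparallel microtubules of the midzone. For Prc1 the NAP libraries ran from 17.7 through a median of 23.6 to 36.2 CPM, and controls 1 to 5 stood at 41.8, 9.50, 34.3, 58.5 and 11.6 CPM. All 4 genes had controls 2 and 5 below every NAP library and passed the spread test. Birc5 encodes survivin of the chromosomal passenger complex and had 9.52 to 32.4 CPM in NAP libraries, against 31.7, 12.6, 25.9, 42.1 and 7.30 CPM in controls 1 to 5. Kif20a, a kinesin that brings the passenger complex to the midzone, was the least abundant per length, with a mean of 0.875 FPKM in NAP and 1.41 FPKM in controls. It had 1.63 to 5.75 CPM in NAP libraries, against 8.57, 1.54, 3.98, 13.8 and 0.644 CPM in controls 1 to 5, and did not pass the spread test (adjusted p = 0.0775) although control 4 held 21.5 times the CPM of control 5, the widest range of the 30. Deposited coordinates of Prc1, Anln and Kif20a overlap protein-coding genes on the opposite strand, Rccd1, 9530077C05Rik, and Brd8 and Cdc23. If strand was not used, the overlapping genes could affect the counts of these 3 genes, and of Ccna2, Aurka, Cdc20 and Nusap1. The overlaps are of whole gene spans, introns included, so they do not show that exons are shared, and an effect on the counts was not tested.

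The pair of chromosome structure genes had the highest mean CPM of the 30 in both groups, although Bub3 stood above both in NAP 5 and controls 2 and 5. Mki67, which encodes the chromosome coat protein Ki-67 used as a stain for dividing cells (identifier 17345, chromosome 7 from 135291513 to 135318286 of GRCm39), had a log2 fold change of −0.70 with an SE of 0.62 (edgeR adjusted p = 0.522). NAP libraries held 36.8, 64.0 and 119 CPM of Mki67 at their lowest, median and highest, and controls 1 to 5 held 196, 18.0, 121, 237 and 16.3 CPM. Its mean was 72.6 ± 36.3 CPM in NAP (SD, n = 6) and 118 ± 101 CPM in controls (SD, n = 5). Controls 1, 3 and 4 were above every NAP library, but control 3 by little, and controls 2 and 5 were less than any. Top2a encodes topoisomerase II alpha, which untangles sister chromatids. Top2a had 39.0, 64.0 and 114 CPM as the lowest, median and highest of the 6 NAP libraries, against 152, 20.6, 109.8, 200.1 and 17.04 CPM in controls 1 to 5. NAP 3 stood above control 3 for this gene. Its log2 fold change was −0.47 with an SE of 0.56 (edgeR adjusted p = 0.640), and its mean was 72.0 ± 31.0 CPM in NAP and 99.9 ± 80.6 CPM in controls (same n). Both passed the spread test, with an SD of log2 CPM of 0.74 and 0.62 in NAP and 1.88 and 1.67 in controls.

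The 9 lists of other cell cycle genes held 157 tested members, of which 2 fell and 2 rose, a share near the 2.12% called among all tested genes. Pkmyt1, a kinase that holds Cdk1 inactive until entry, fell to 16.48 ± 3.16 CPM in NAP, against 30.2 ± 2.38 CPM in controls (SD, log2 fold change −0.88, SE 0.16, edgeR adjusted p = 0.0343). Ube2s, which lengthens the ubiquitin chains that Ube2c starts, fell to 29.97 ± 9.92 CPM in NAP, against 58.2 ± 5.55 CPM in controls (SD, log2 fold change −0.96, SE 0.21, edgeR adjusted p = 0.0432). In both genes controls 2 and 5 stood with the other controls, at 28.8 and 27.5 CPM for Pkmyt1 and 53.9 and 54.4 CPM for Ube2s, and all NAP libraries were below every control. Cdc14a, a phosphatase of the family that in yeast drives mitotic exit, rose to 48.5 ± 7.47 CPM in NAP, against 29.0 ± 6.20 CPM in controls (SD, log2 fold change 0.74, SE 0.17, edgeR adjusted p = 0.0477). Ccng2, an unusual cyclin tied to cell cycle arrest, rose to 199 ± 74.3 CPM in NAP, against 74.7 ± 28.3 CPM in controls (SD, log2 fold change 1.42, SE 0.32, edgeR adjusted p = 0.0442). Leaving out 1 library at a time kept the sign of all 4 in 11 of 11 fits but kept the call in 5 fits for Pkmyt1 and 2 for each of the other 3, with adjusted p between 0.0254 and 0.128. Calls of Ube2s, Cdc14a and Ccng2 were kept without NAP 1 or 3, and that of Pkmyt1 also without NAP 6, control 3 or control 4. With no filter on low counts the adjusted p was 0.0693 for Pkmyt1, 0.0629 for Ube2s, 0.101 for Cdc14a and 0.0368 for Ccng2.

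Counts in these lists stand beside shares among all tested genes of 55.3% with a log2 fold change below 0, 2.12% past the level test and 8.65% past the spread test with the smaller spread in NAP. Of other spindle and motor genes, 19 of 21 had a log2 fold change below 0 (median −0.54), 0 passed the level test and 8 the spread test, and their smallest p-values were those of Kifc1 (−0.98), Kif2a (0.38) and Kif22 (−0.95), with log2 fold changes in brackets here and below. For condensin, cohesin and separase genes, which shape and release sister chromatids, 14 of 21 were below 0 (median −0.25), with 0 past the level test and 7 past the spread test, led in p by Ncaph2 (−0.42), Stag2 (0.69) and Ncaph (−0.89). The other kinetochore and centromere genes had 20 of 25 below 0 (median −0.39), 0 past the level test and 2 past the spread test, led by Pmf1 (−0.82), Mad1l1 (−1.22) and Hjurp (0.68). Of the other midzone and cytokinesis genes 10 of 14 were below 0 (median −0.29), with 0 and 3 past the level and spread tests, led by Septin7 (0.71), Septin2 (0.57) and Pdcd6ip (0.38). Regulators of entry and exit had 11 of 18 below 0 (median −0.23), 1 fall, 1 rise and 5 past the spread test, led by Pkmyt1 (−0.88), Cdc14a (0.74) and Wee1 (0.62). Every spread call in these 5 lists was for a smaller spread in NAP.

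For the anaphase promoting complex the list held its subunits, the activator Fzr1, the inhibitor Fbxo5 and the enzyme Ube2s. The median SD of log2 CPM was 0.28 in NAP and 0.33 in controls. The spread test passed for 2 with the smaller spread in NAP, the subunit genes Anapc11 and Cdc27 (limma adjusted p = 0.0317 and 0.0371). Cdc27 stood at 41.8, 22.3, 26.7, 54.3 and 25.1 CPM in controls 1 to 5, with controls 2 and 5 lowest. Anapc11 went the other way, at 31.6, 69.6, 37.7, 30.7 and 70.2 CPM, with controls 2 and 5 highest. In level, 14 of 17 had a log2 fold change below 0 (median −0.15), and Ube2s, which is no subunit, was the 1 call, followed in p by Anapc16 (−0.80) and Cdc16 (−0.43). Transcription regulators of mitotic genes had 9 of 15 below 0 (median −0.0079), 0 level calls, 2 spread calls smaller in NAP and 1 larger, that of Nfya, and were led in p by Nfya (0.48), Mybl2 (−1.44) and Nfyc (−0.52). Foxm1, which encodes an activator of G2 and M genes and was chosen after its values were seen, had 5.75, 10.2 and 16.48 CPM as its lowest, median and highest NAP values, against 33.5, 3.00, 15.8, 43.2 and 2.08 CPM in controls 1 to 5, the same order of controls as most of the 30. Mybl2 did not have that order, at 56.5, 5.03, 15.7, 27.0 and 6.66 CPM in controls 1 to 5, with control 1 highest and control 2 lowest. G1 cyclins and kinases had 10 of 12 below 0 (median −0.61), no call of either kind, and were led by E2f2 (−1.07), Ccnd3 (−0.59) and Ccne1 (−1.26). CDK inhibitors and arrest genes were the list with most members above 0, 10 of 14 (median 0.27), led by Ccng2 (1.42), Cdkn1c (−1.35) and Cdkn1b (0.94), of which Ccng2 alone passed the level test. In that list 3 genes, Cdkn1c, Cdkn1a and Gadd45b, passed the spread test with the smaller spread in NAP. The summed level of the list was 2137, 3145, 2050.1, 3009, 3451 and 2124 CPM in NAP libraries 1 to 6 and 1520.4, 2385, 2298, 1282 and 2415 CPM in controls 1 to 5, so controls 1 and 4, the libraries with most mitosis RNA, had the least of it.

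Among the controls, summed markers of intestinal stem cells rose and fell with the mitosis genes, and those of absorptive colonocytes ran opposite to them. Intestinal stem cell markers (15 genes) summed to 1188, 1015, 1073, 932, 1113 and 1250.5 CPM in NAP libraries 1 to 6, against 1503, 805, 1318, 1928 and 899 CPM in controls 1 to 5, with controls 4 and 1 highest and controls 2 and 5 lowest like the mitosis sum. Over the NAP libraries the stem cell sum did not follow the mitosis sum: NAP 5, low in mitosis genes, stood above NAP 3, the highest in them. Prom1 gave 491 to 823 CPM of the NAP sums and 541 to 686 CPM of the control sums, and among controls it was lowest in control 4, unlike the sum. Absorptive colonocyte markers (15 genes) ran the other way, at 10966, 15608, 10257, 14184, 13223 and 11236 CPM in NAP libraries 1 to 6, against 5076, 19605, 7624, 4086 and 18824 CPM in controls 1 to 5. Controls 2 and 5 were the highest there and controls 4 and 1 the lowest, with the NAP libraries between. Goblet cell markers, also of cells that have left the cycle, did not follow the colonocyte markers. They summed to 4090, 3712, 3738, 7613 and 3697 CPM in controls 1 to 5, highest in control 4 and lowest in control 5. Markers of epithelium in general summed to 10416, 19944, 14884, 10629 and 19658 CPM in controls 1 to 5. Enteroendocrine markers summed to 186, 557, 452, 275 and 534 CPM there. Both lists were highest in controls 2 and 5 and lowest in controls 1 and 4, so this order was not particular to colonocyte markers. Of the stem cell markers 13 of 14 tested had a log2 fold change below 0 and 0 passed, and of the colonocyte markers 10 of 15 were below 0 and Ceacam1 rose, at 1650.2 ± 259 CPM in NAP, against 863 ± 81.7 CPM in controls (SD, log2 fold change 0.94, SE 0.18, edgeR adjusted p = 0.0383). Its call was kept in 4 of 11 fits with 1 library left out (edgeR adjusted p = 0.0303 to 0.112). The spread test passed for 3 of 14 stem cell and 8 of 15 colonocyte markers, all smaller in NAP, against 8.65% of all tested genes. The part of the mix of crypt and surface cells in the spread of the mitosis genes was not tested.

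**Figure D5:**
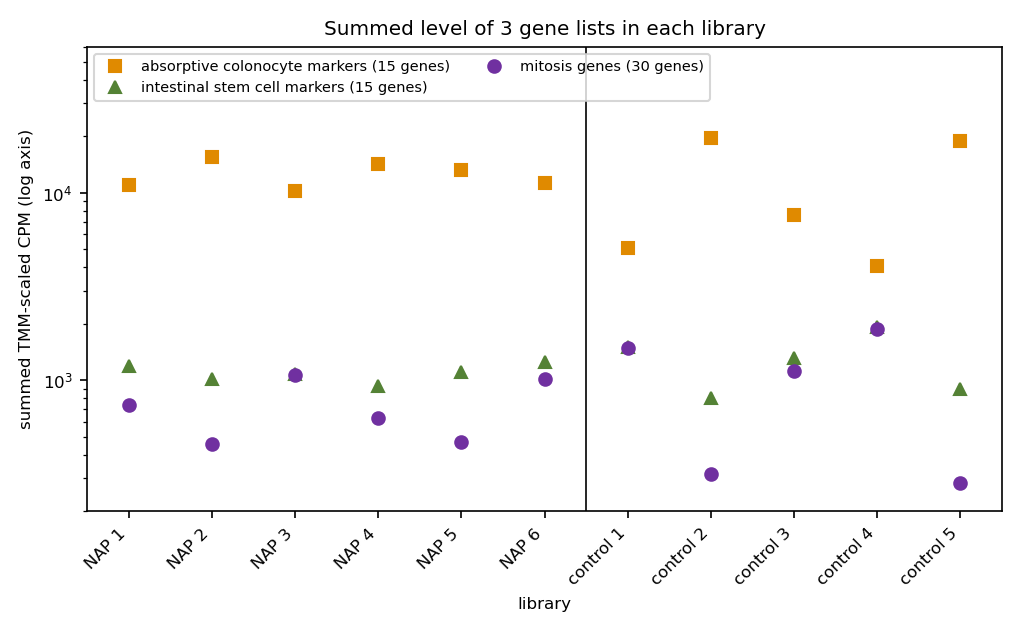
Summed TMM-scaled CPM (log axis) of mitosis genes, intestinal stem cell markers and absorptive colonocyte markers in each library, NAP left of control. In controls 1 and 4 the mitosis sum reaches 1487 and 1884 CPM where colonocyte markers are lowest, in controls 2 and 5 it is 316 and 282 CPM where they are highest, and the NAP libraries lie between on both.

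The defining markers of colon epithelium were abundant in every library. Epithelial markers (Epcam, Cdh1, keratins and others, 10 genes) summed to 11089 to 14879 CPM in NAP libraries and 10416 to 19944 CPM in controls, and goblet cell markers to 2241 to 5079 CPM in NAP libraries and 3697 to 7613 CPM in controls. Enteroendocrine markers summed to 241 to 461 CPM in NAP libraries and 186 to 557 CPM in controls and tuft cell markers to 2.43 to 7.31 CPM in NAP libraries and 2.07 to 6.29 CPM in controls, with Il25 at 0 in all libraries. Markers of other tissues were low. Fibroblast markers (10 genes, 2 tested) summed to 17.6 to 69.7 CPM in NAP libraries and 8.21 to 37.3 CPM in controls, immune cell markers (10 genes, 3 tested) to 10.5 to 24.3 CPM in NAP libraries and 6.18 to 14.8 CPM in controls, and endothelial markers (6 genes, 1 tested) to 2.87 to 5.33 CPM in NAP libraries and 3.46 to 6.32 CPM in controls. No marker of these 7 lists passed the level test.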

How the data were processed

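The authors deposited whole-number counts per gene for 11 libraries, 6 NAP and 5 control, and FPKM values for the same genes. Per the submitters' processing notes, the tools were Trimmomatic 0.39 (trimming), HISAT2 2.2.1 (alignment) and featureCounts from Subread 2.0.8 (counts), on the GRCm39 build. For strand, annotation release and reads with several matches, settings were not given in the sources used here. Each deposited FPKM value equalled the count over gene length times 1 constant per library. The table has 800 features with an identifier but no gene name, with 0.154 to 0.264% of counts, which stayed in the tests.

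Counts were filtered with filterByExpr, scaled with TMM and tested for NAP minus control by edgeR 4.0.16 (quasi-likelihood, R 4.3.3), Benjamini-Hochberg adjusted over all tested genes, threshold 0.05. Standard errors are the log2 fold change over the root of the test statistic. For spread, absolute deviations of log2 CPM (prior count 2) from the group mean, scaled for group size, were compared with limma 3.58.1. Deviations within a group depend on each other through the mean, which makes this test approximate. Both procedures were tested on simulated counts. Alternatives were RLE scaling, other filters, DESeq2 1.42.0, limma on voom weights and on log2(FPKM + 1) or log2(FPKM + 0.1), a replicate block, libraries left out, and, for spread, a prior count of 0.5 and deviations from the median. No 2 libraries of a group agreed within sampling noise (chi-square per degree of freedom at least 7.82). The value of 7.82 was that of controls 2 and 5, the most alike pair. The next was 13.8, for NAP 2 and 5, and other pairs of controls had 43.5 to 331.

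The genes, lists and alternatives were chosen with earlier results of these data known. By the rule for naming, all 30 mitosis genes are named. Values of each control, and the lowest, median and highest of the 6 NAP libraries, are given for those with the smallest p in each role, Mki67, Ccnb1, those past either test, any above 0 and those at the ends of the SD ratio, and in the other lists the 3 smallest p-values and every level call are named.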

Additional observations from a re-analysis of the deposited data

How the results depend on the processing

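The number of mitosis genes past the level test stayed at 0 under RLE scaling, both filters, DESeq2, limma on voom or FPKM, the replicate block and each library left out, and was 6 without controls 2 and 5. Over all genes 315 passed with all libraries, 1670 with DESeq2, 89 with no filter, 1315 without controls 1 and 4, 824 without controls 2 and 5, and 0 to 814 with 1 library left out. The count of mitosis genes below 0 was 23 to 30 with 1 library left out and 2 without controls 1 and 4, and their median was −0.74 to −0.12 with 1 left out, 0.41 without controls 1 and 4 and −1.06 without controls 2 and 5. The spread test called 1359 genes with all libraries, 4988 with no filter, 0 with deviations from the median (1671 at an unadjusted p below 0.05), 0 without controls 1 and 4, 1 without controls 2 and 5 and 0 to 4149 with 1 library left out. Among mitosis genes it called 0, 0 and 0 in the same 3 settings and 0 to 26 with 1 left out. The SD was larger in controls for 29 to 30 of 30 with 1 left out and 4 without controls 2 and 5. The cause of these differences was not tested.

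Replicate numbers 1 to 5 occur in both groups. Deviations of same-numbered libraries correlated at 0.42, 0.34, −0.074, −0.30 and 0.30 over genes. Pairs with different numbers were not set beside them, so these values cannot decide whether same-numbered libraries were paired. The labels do not say so either. With the replicate block edgeR called 0 genes, 2903 at an unadjusted p below 0.05, and 25 of 30 mitosis genes were below 0 (median −0.24). Pkmyt1, Ube2s, Cdc14a, Ccng2 and Ceacam1 then had edgeR adjusted p of 0.132 to 0.167.

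Single log2 fold changes that turned sign were, without controls 1 and 4, 0.15 (Cdk1), 0.68 (Ccna2), 0.68 (Ccnb1), 0.35 (Ccnb2), 0.079 (Aurka), 0.18 (Aurkb), 0.44 (Plk1), 0.27 (Bub1), 0.11 (Bub1b), 0.53 (Mad2l1), 0.34 (Ttk), 0.17 (Cdc20), 0.32 (Ube2c), 0.26 (Cenpe), 0.79 (Cenpf), 0.60 (Kif11), 0.32 (Kif2c), 0.44 (Tpx2), 0.39 (Hmmr), 0.42 (Birc5), 0.78 (Kif20a), 0.30 (Kif23), 0.46 (Prc1), 0.67 (Anln), 0.49 (Ect2), 0.57 (Top2a) and 0.51 (Mki67); without controls 2 and 5, −0.52 (Nusap1); with limma on voom weights, 0.064 (Ccna2), 0.020 (Mad2l1), 0.33 (Cenpf), 0.073 (Anln) and 0.026 (Top2a); on log2(FPKM + 1), 0.073 (Ccna2), 0.011 (Ccnb1), 0.069 (Mad2l1) and 0.076 (Cenpf); on log2(FPKM + 0.1), 0.18 (Ccna2), 0.11 (Ccnb1), 0.14 (Mad2l1), 0.053 (Ttk), 0.38 (Cenpf), 0.047 (Kif11), 0.18 (Anln) and 0.033 (Top2a); and with the replicate block, 0.057 (Ccna2), 0.048 (Mad2l1), 0.38 (Cenpf) and 0.045 (Anln). With 1 library left out the values were −0.46 to 0.054 for Birc5, −0.68 to 0.045 for Ccna2, −0.34 to 0.28 for Cenpf, −0.44 to 0.10 for Mad2l1, −0.18 to 0.46 for Nusap1, −0.52 to 0.038 for Prc1 and −0.55 to 0.013 for Ube2c, and other mitosis genes kept their sign in all 11 fits.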
